A study of Mus musculus with 4 samples.

Results

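The genes described here encode core proteins of the spliceosome and the SR family of splicing factors. They are the 48 of 23312 measured genes whose symbols begin with Snrp, Sf3a, Sf3b, Srsf, Sfrs, Prpf or U2af, followed by a number where the family is numbered. The choice used symbols and no measured value, but it was made with earlier results of these data known. RNA was sequenced in 4 libraries from B220+CD43+ bone marrow cells, the gate for pro-B cells, which rearrange their immunoglobulin heavy chain genes. There were 2 libraries from Cnot3 fl/fl mice, whose Cnot3 alleles are flanked by loxP sites, and 2 from Cnot3 +/+ mice, each from an individual C57BL/6 animal. All mice of both genotypes carried RERTCre, a Cre recombinase switched on by tamoxifen, and tamoxifen was injected (1 mg each on day 1, day 2, day 4 and day 7) before analysis on day 10. The controls thus share the Cre and the drug, and the labels do not say in which cells the Cre acts. Cnot3 encodes a subunit of CCR4-NOT, the complex that shortens poly(A) tails of mRNAs.

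The spliceosome removes introns from precursor mRNAs and is rebuilt on each intron from small nuclear ribonucleoproteins (snRNPs). A ring of Sm proteins forms around the RNA of the U1, U2, U4 and U5 snRNPs, and each snRNP adds proteins of its own. U2AF and the SF3A and SF3B complexes select the branch point and the splice acceptor site, PRP factors build and activate the catalytic centre, and SR proteins bind exons and recruit these parts. In lymphocytes, as in other cells, the amounts of SR proteins and of their hnRNP antagonists shape which exons are kept, and SR proteins limit their own mRNAs through alternative exons that lead to decay.

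Values are FPKM (fragments per length of transcript and number of fragments mapped), which scale for transcript length. Levels of different genes can be set side by side only with care, since reads shared with near-identical copies or overlapping genes may be split. The files hold no read counts. Relative depth, read from the spacing of the lowest values, was 0.957 and 1 in the Cnot3 fl/fl libraries and 0.746 and 0.898 in the Cnot3 +/+ libraries, and the absolute depth is unknown. Cnot3 itself had 39.0 and 40.3 FPKM in Cnot3 fl/fl libraries, against 41.6 and 39.3 FPKM in Cnot3 +/+ libraries, a whole-gene value that cannot check the loss of some exons. Cnot3 +/+ replicate 1 stood apart with Xist at 0.0242 FPKM, against 54.3 to 63.1 FPKM in the other libraries. It alone held the Y-linked transcripts Eif2s3y and Ddx3y, at 29.3 and 16.0 FPKM, against at most 0.0275 and 0.0093 FPKM in the others, so this control differed from the other 3 libraries in sex-linked transcripts. The gate held transcripts of other cells as well. A list of 8 plasmacytoid dendritic cell genes summed to 8209 and 9714 FPKM in Cnot3 fl/fl and to 10389 and 9961 FPKM in Cnot3 +/+ libraries. Of the 8, Cox6a2 fell (limma adjusted p = 0.0493) and none rose. That is 12.5% lower, beside 3.28% of all genes tested. At an unadjusted limma p under 0.05, 3 were lower and 1 higher, beside 15.3% and 18.5% of all genes tested. A list of 8 B-lineage genes, of which 5 fell and none rose, summed to 329 and 309 FPKM in Cnot3 fl/fl and to 541 and 836 FPKM in Cnot3 +/+ libraries. The falls were 62.5% of the 8, beside 3.28% of all genes tested. None of these 16 genes was at 0 in any library. Of 7 neutrophil and monocyte genes 3 rose, that is 42.9%, beside 6.22% of all genes tested. In 5 of the 7, or 71.4%, both Cnot3 fl/fl libraries lay above both Cnot3 +/+ libraries, beside 32.7% of all genes tested. All 7 summed to 195 and 132 FPKM in Cnot3 fl/fl, against 122 and 169 FPKM in Cnot3 +/+ libraries. That sum includes S100a9, which overlapped at 101 and 68.7 against 60.8 and 105 FPKM. Of 5 T and NK cell genes none passed the limma test. Their sum was 419 and 309 FPKM in Cnot3 fl/fl, against 323 and 218 FPKM in Cnot3 +/+ libraries. In 2 of the 5, Klrd1 and Ncr1, both Cnot3 fl/fl libraries lay above both Cnot3 +/+ libraries. That is 40%, beside 32.7% of all genes tested, and the other 3 overlapped. The authors' deposited table gave Klrd1 and Ncr1 q-values of 0.0040 and 0.0022. In bulk samples like these, fewer cells of a type and less RNA per cell cannot be told apart, and the part of cell composition in the results below was not tested.

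Few of the splicing genes passed the test between the genotypes. Of the 48, 46 had a mean of at least 1 FPKM and were tested. In Cnot3 fl/fl libraries 2 of them rose, Prpf38a and Prpf6, and 2 fell, Snrpf and Snrpg (limma on log2(FPKM + 1), adjusted p under 0.05 over 11017 genes). This is 4.35% of the 46 in each direction, beside 6.22% called higher and 3.28% called lower among all genes tested, so the share of calls was near the background. At an unadjusted limma p under 0.05, 8 were higher and 10 lower, beside 18.5% and 15.3% of all genes tested. Both Cnot3 fl/fl libraries lay above both Cnot3 +/+ libraries in 11 of the 46 and below them in 16, that is 23.9% and 34.8%, beside 32.7% and 31.7% of all genes tested. The median log2 fold change was -0.06, beside -0.0090 over all genes tested. The median size of the log2 fold change, sign aside, was 0.20, against 0.22 over all genes tested. Together the 48 genes made up 0.583% and 0.580% of the summed FPKM in Cnot3 fl/fl libraries and 0.587% and 0.602% in Cnot3 +/+ libraries.

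For 1 gene in 2 against 2 libraries the smallest p of an exact permutation test is 0.333, and each of the 4 calls was lost when any 1 of the 4 libraries was left out. Their limma adjusted p was then between 0.0908 and 0.249, with the same sign each time. With no filter on low values all 4 calls were lost as well, at limma adjusted p between 0.0635 and 0.0903, and without the trend in eBayes only Snrpf passed of the 46. The authors' deposited table has 0 of the 48 genes at a q-value under 0.05, beside 4.08% higher and 2.51% lower among the 12154 genes it tested, with 4 at an unadjusted p under 0.05 in each direction. Its smallest q-value was 0.0715, for Snrpf.

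**Figure D1:**
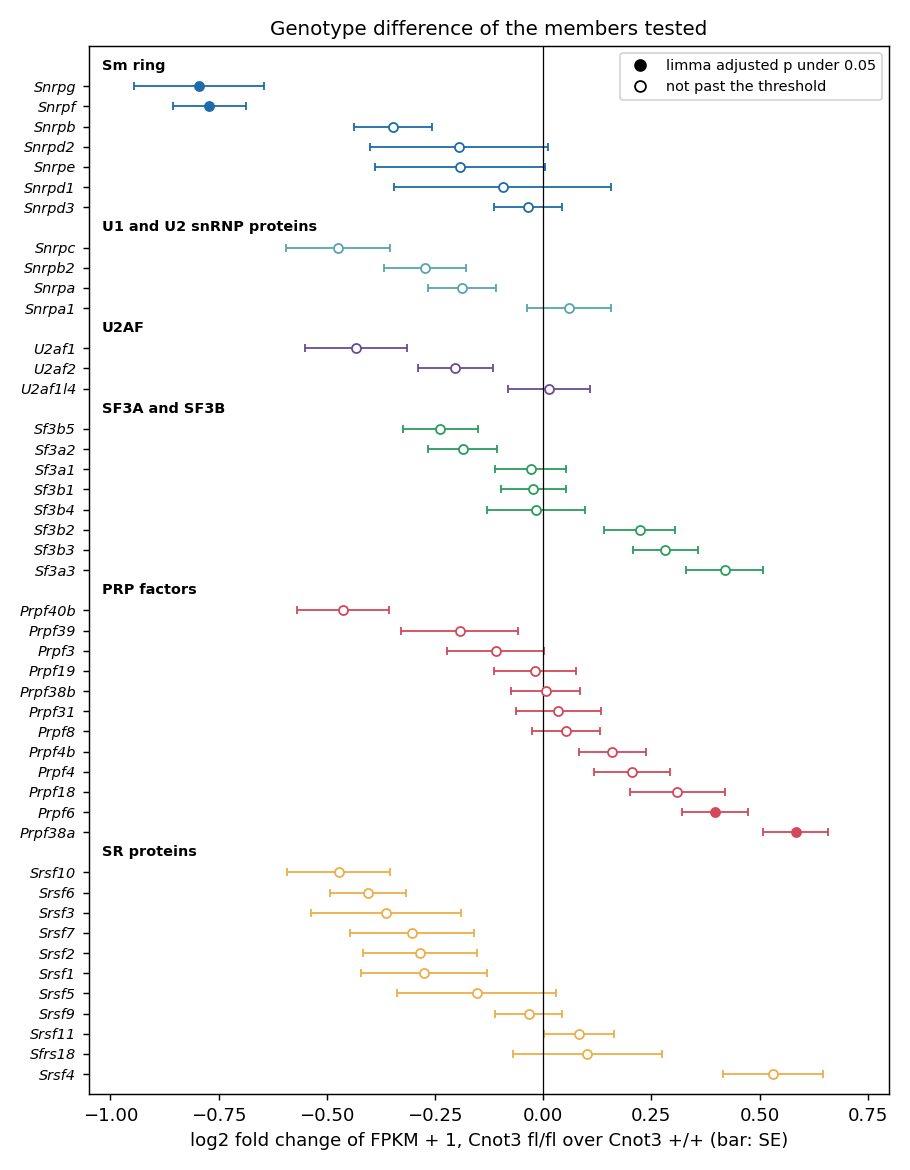
Log2 fold change of FPKM + 1, Cnot3 fl/fl over Cnot3 +/+, for 45 of the 46 genes tested, grouped by role, with the limma standard error as a bar and filled points at an adjusted p under 0.05. Points of the Sm ring lie left of 0, the nearest being Snrpd3 at -0.035, while those of the PRP factors and of SF3A and SF3B lie on both sides.

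The promoters of the 4 genes that passed the test are shown because they are the members that moved. Each line gives the 200 bases before the RefSeq start site (GRCm38.p6), 5′ to 3′ on the gene's own strand. Snrpf lies on the minus strand at chr10:93589659-93589858, Snrpg on the plus strand at chr6:86371340-86371539, Prpf38a on the minus strand at chr4:108579337-108579536 and Prpf6 on the plus strand at chr2:181601119-181601318. Capitals mark matches, on either strand, to letters bound by known factors. They are CCAAT, the box read by NF-Y, then CCGGAAG, a core of ETS factor sites, then TGACGTCA, the cyclic AMP response element, then CACGTG, an E-box of Myc and related factors, and last TATAAA, the TATA box.
Snrpf: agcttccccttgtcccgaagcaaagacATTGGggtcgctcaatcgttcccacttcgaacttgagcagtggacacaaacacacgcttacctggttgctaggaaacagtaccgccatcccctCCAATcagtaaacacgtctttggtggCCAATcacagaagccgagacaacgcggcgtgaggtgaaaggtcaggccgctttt
Snrpg: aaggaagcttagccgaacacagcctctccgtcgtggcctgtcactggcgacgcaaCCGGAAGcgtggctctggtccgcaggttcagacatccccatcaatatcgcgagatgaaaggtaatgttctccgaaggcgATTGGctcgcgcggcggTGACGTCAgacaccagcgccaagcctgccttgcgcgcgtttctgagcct
Prpf38a: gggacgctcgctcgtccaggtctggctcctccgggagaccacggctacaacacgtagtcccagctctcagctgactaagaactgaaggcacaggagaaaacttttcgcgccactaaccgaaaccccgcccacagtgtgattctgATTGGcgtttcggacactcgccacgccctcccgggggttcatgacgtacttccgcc
Prpf6: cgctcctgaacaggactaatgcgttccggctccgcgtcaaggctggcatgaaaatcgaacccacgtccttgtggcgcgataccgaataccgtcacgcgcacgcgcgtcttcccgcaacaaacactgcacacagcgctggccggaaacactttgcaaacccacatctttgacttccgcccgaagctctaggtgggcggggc
The CCAAT box occurred in the windows of Snrpf, Snrpg and Prpf38a, the ETS core and the cyclic AMP response element in that of Snrpg, and the window of Prpf6 held no match to these letters. RefSeq windows were matched for 40 of the 48 genes, 52 windows in all. The CCAAT box occurred in 36.5% of these, beside 32.1% of 10502 windows of genes tested and 29.3% of all 32817 windows. The ETS core occurred in 14 of the 52 windows, 26.9%, beside 13.4% of windows of genes tested and 6.3% of all windows. The cyclic AMP response element was in 3.85%, beside 2.55% and 1.47%, the E-box in 9.62%, beside 7.58% and 5.26%, and the TATA box in 7.69%, beside 4.35% and 9.96%. No match of 1 motif can lie inside another, some genes have more than 1 window, and a match is a run of letters, not a shown binding site.

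The Sm ring held the largest falls. Of its 8 genes, 7 were tested, 2 fell, none rose and 5 did not pass (3 were lower and none higher at an unadjusted limma p under 0.05). The 2 falls were 28.6% of the 7, beside 3.28% of all genes tested. At that unadjusted p 15.3% of all genes tested were lower. Snrpf encodes SmF, which enters the ring as part of a trimer with SmE and SmG. It had 15.4 and 16.9 FPKM in Cnot3 fl/fl libraries, against 27.9 and 28.6 FPKM in Cnot3 +/+ libraries. Both Cnot3 fl/fl libraries were well below both Cnot3 +/+ libraries, and the replicates of each genotype lay close together. The ratio of the means was 0.572, with a log2 fold change of -0.77 (SE 0.08, limma adjusted p = 0.0295). The files' mm9 locus of Snrpf, chromosome 10 from 93003376 to 93067990, also spans Ccdc38 and 4933408J17Rik, which were at or below 0.326 and 0.199 FPKM in every library.

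Snrpg encodes SmG, the partner of SmF in that trimer. It had 15.8 and 19.3 FPKM in Cnot3 fl/fl libraries, against 27.9 and 34.5 FPKM in Cnot3 +/+ libraries, without overlap. The ratio of the means was 0.562 and the log2 fold change -0.80 (SE 0.15, limma adjusted p = 0.0457). Snrpe, which encodes SmE, the third protein of the trimer, had 22.8 and 24.7 FPKM in Cnot3 fl/fl libraries, against 22.4 and 33.2 FPKM in Cnot3 +/+ libraries. Its libraries overlapped, since Cnot3 +/+ replicate 1 was the lowest of the 4, and its log2 fold change was -0.19 (limma adjusted p = 0.53).

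The remaining Sm genes did not pass the test. Snrpb, which encodes SmB and was the most abundant of the 48 genes, had 165 and 176 FPKM in Cnot3 fl/fl libraries, against 210.4 and 225 FPKM in Cnot3 +/+ libraries. The genotypes did not overlap, with a log2 fold change of -0.35 (SE 0.09, limma adjusted p = 0.0760). Its partner in the ring, SmD3, is encoded by Snrpd3, which had 115 and 118 FPKM in Cnot3 fl/fl libraries, against 116 and 123 FPKM in Cnot3 +/+ libraries. These values overlapped, and the log2 fold change was -0.04 (SE 0.08). Snrpd1 and Snrpd2, for the SmD1 and SmD2 pair, also overlapped, at 18.9 and 18.6 against 15.4 and 26.2 FPKM and at 63.6 and 89.7 against 77.1 and 97.4 FPKM in Cnot3 fl/fl against Cnot3 +/+ libraries.

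Snrpn, which encodes SmN, the form of SmB found mainly in brain, was at 0 in replicate 1 of each genotype and at 0.0115 FPKM in Cnot3 fl/fl replicate 2, against 0.0462 FPKM in Cnot3 +/+ replicate 2. It was not tested. The median log2 fold change of the 7 tested Sm genes was -0.19, with a negative value in all 7, though Snrpd3 turned to 0.0026 under quantile normalization. Without Cnot3 fl/fl replicate 1 the median was -0.14 and Snrpd2 turned to 0.05, and without Cnot3 fl/fl replicate 2 it was -0.39. Without Cnot3 +/+ replicate 1 it was -0.46. Without Cnot3 +/+ replicate 2 it was -0.03, and the value was negative in 4 of the 7, with Snrpd1, Snrpe and Snrpd3 at 0.27, 0.08 and 0.0081. Cnot3 +/+ replicate 2 was also the library with the most RNA from a list of 7 genes of cycling cells, among them Mki67 and Top2a. These summed to 142 and 135 FPKM in Cnot3 fl/fl and to 118 and 238 FPKM in Cnot3 +/+ libraries. Of the 7, 0 passed the limma test. The log2 fold change was negative in 6 of the 7, or 85.7%, beside 51% of all genes tested, with a median of -0.47. In the authors' deposited table Top2a and Cdk1 were lower in Cnot3 fl/fl, with q-values of 0.0022 and 0.0102. The libraries of both overlapped, and the others did not pass there. The part of these 7 genes in the values of the Sm genes was not tested.

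**Figure D2:**
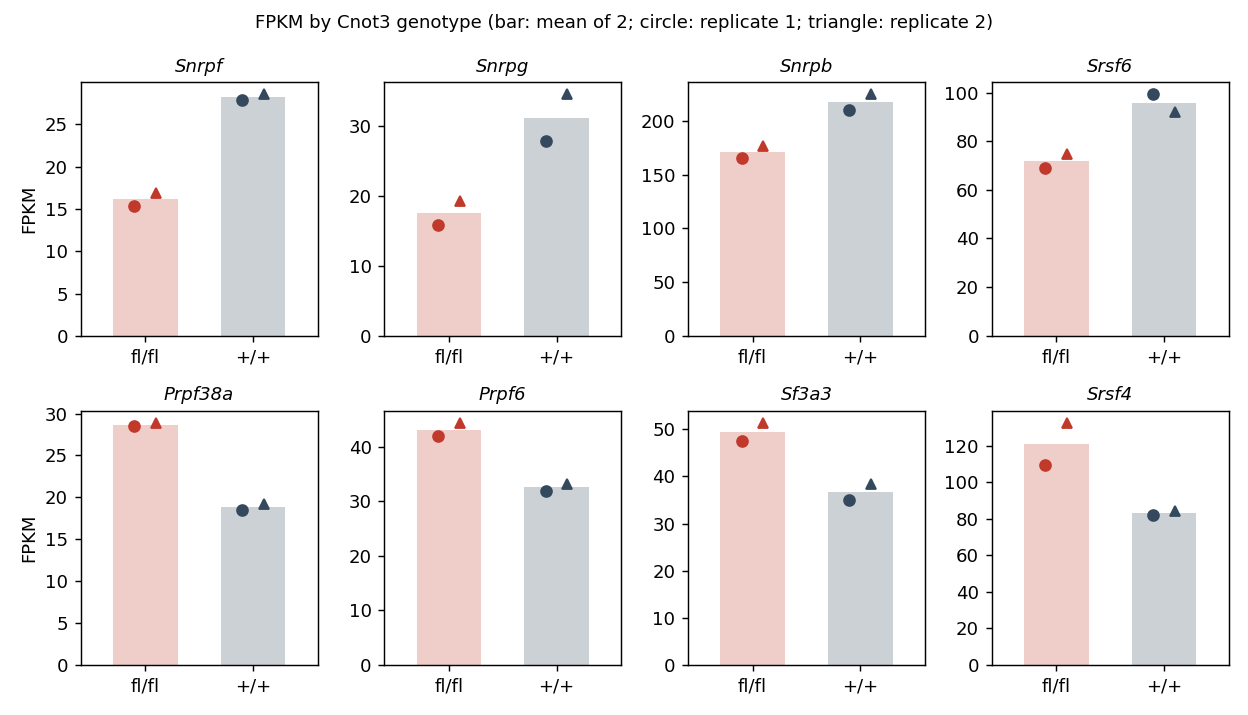
FPKM of 8 splicing genes in Cnot3 fl/fl and Cnot3 +/+ libraries, with the mean of the 2 libraries as a bar and each library as a point. Snrpf, Snrpg, Snrpb and Srsf6 were lower in both Cnot3 fl/fl libraries, and Prpf38a, Prpf6, Sf3a3 and Srsf4 were higher in both.

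The 4 genes here for proteins particular to the U1 and U2 snRNPs did not pass the test. At an unadjusted limma p under 0.05, 2 were lower and none higher, beside 15.3% and 18.5% of all genes tested. Snrpc encodes the C protein of the U1 snRNP, which helps the U1 snRNP to hold the splice donor site. It had 4.11 and 4.67 FPKM in Cnot3 fl/fl libraries, against 6.15 and 6.81 FPKM in Cnot3 +/+ libraries (log2 fold change -0.47, SE 0.12, limma adjusted p = 0.0733). Snrpb2, for the U2 protein that binds U2 RNA, had 22.9 and 26.1 FPKM in Cnot3 fl/fl libraries, against 30.3 and 29.3 FPKM in Cnot3 +/+ libraries. Snrpa, for the A protein of the U1 snRNP, had 31.0 and 33.4 FPKM in Cnot3 fl/fl libraries, against 37.4 and 36.2 FPKM in Cnot3 +/+ libraries. In these genes both Cnot3 fl/fl libraries were below both Cnot3 +/+ libraries, with limma adjusted p of 0.12 for Snrpb2 and 0.18 for Snrpa. Genes lower without overlap were thus 75% of the 4, beside 31.7% of all genes tested. Snrpa1, whose product pairs with that of Snrpb2, overlapped at 34.3 and 32.7 FPKM in Cnot3 fl/fl against 29.9 and 34.4 FPKM in Cnot3 +/+ libraries. The median log2 fold change of the 4 genes was -0.23. Snrnp70, which encodes another U1 protein, lies outside the symbol rule and is counted with the other spliceosome proteins below. It had 198 and 202 FPKM in Cnot3 fl/fl libraries, against 189 and 185 FPKM in Cnot3 +/+ libraries. Its log2 fold change was 0.10, without overlap (limma adjusted p = 0.45). Snrpa shares its locus in the files with BC024978, which was between 4.33 and 6.50 FPKM in every library.

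U2AF binds the polypyrimidine tract and the splice acceptor site. Of its 3 genes none passed the test, and the median log2 fold change was -0.20. At an unadjusted limma p under 0.05, 1 was lower and none higher, beside 15.3% and 18.5% of all genes tested. U2af1, for the small subunit that reads the acceptor dinucleotide, had 5.53 and 6.62 FPKM in Cnot3 fl/fl libraries, against 8.50 and 8.54 FPKM in Cnot3 +/+ libraries (log2 fold change -0.43, SE 0.12, limma adjusted p = 0.0822). U2af2, for the large subunit that binds the tract, had 61.4 and 68.2 FPKM in Cnot3 fl/fl libraries, against 75.8 and 73.5 FPKM in Cnot3 +/+ libraries, with an adjusted p of 0.18 in limma. Both were lower in both Cnot3 fl/fl libraries, that is 66.7% of the 3, beside 31.7% of all genes tested. U2af1l4, a relative of the small subunit, had 27.2 and 29.0 FPKM in Cnot3 fl/fl libraries, against 26.1 and 29.6 FPKM in Cnot3 +/+ libraries, which overlapped.

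SF3A and SF3B hold the U2 snRNP on the branch point. Their 8 genes here were split in direction and none passed the test. At an unadjusted limma p under 0.05, 3 were higher and 1 lower, beside 18.5% and 15.3% of all genes tested. Phf5a, an SF3B gene outside the symbol rule, is given with the other spliceosome proteins below. Sf3a3 had 47.4 and 51.3 FPKM in Cnot3 fl/fl libraries, against 35.0 and 38.4 FPKM in Cnot3 +/+ libraries, without overlap. Its log2 fold change was 0.42 (SE 0.09, limma adjusted p = 0.0551), and it passed under quantile normalization (0.0480) and robust eBayes (0.0452). Sf3b3, a scaffold of SF3B, had 76.6 and 72.9 FPKM in Cnot3 fl/fl libraries, against 60.3 and 62.2 FPKM in Cnot3 +/+ libraries (limma adjusted p = 0.0776).

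Sf3b2, which contacts the RNA beside the branch point, had 143 and 152 FPKM in Cnot3 fl/fl libraries, against 124 and 129 FPKM in Cnot3 +/+ libraries (limma adjusted p = 0.14). These 3 genes were higher in both Cnot3 fl/fl libraries, that is 37.5% of the 8, beside 32.7% of all genes tested. The small subunit gene Sf3b5 was lower in both, at 79.0 and 87.9 FPKM in Cnot3 fl/fl against 99.0 and 97.9 FPKM in Cnot3 +/+ libraries (limma adjusted p = 0.14). Sf3a2 had a log2 fold change of -0.19, also without overlap. Genes lower without overlap were thus 25% of the 8, beside 31.7% of all genes tested. Sf3b1, for the subunit that encloses the branch point adenosine, was nearly level, at 101 and 103 FPKM in Cnot3 fl/fl libraries, against 102 and 106 FPKM in Cnot3 +/+ libraries. Its log2 fold change was -0.02 (SE 0.08), and Sf3a1 and Sf3b4 had -0.03 and -0.02, all with overlapping libraries. The median of the 8 genes, -0.02, lay between -0.07 and 0.06 with a library left out.

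The PRP factors, which act from the first binding of U1 to the second catalytic step, held both rises. Of 13 genes 2 rose, none fell and 11 did not pass (4 higher and 1 lower at an unadjusted limma p under 0.05). The 2 rises were 15.4% of the 13, beside 6.22% of all genes tested. At that unadjusted p 18.5% of all genes tested were higher. Prpf38a encodes a protein that joins the spliceosome with the U4/U6.U5 tri-snRNP, just before activation. It had 28.5 and 28.8 FPKM in Cnot3 fl/fl libraries, against 18.5 and 19.1 FPKM in Cnot3 +/+ libraries. The gap between the genotypes was many times the gap between replicates. The ratio of the means was 1.52 and the log2 fold change 0.58 (SE 0.07, limma adjusted p = 0.0357), with 0.0511 where eBayes had no trend.

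Prpf6 encodes the bridge between the U5 and the U4/U6 parts of the tri-snRNP. It had 42.0 and 44.3 FPKM in Cnot3 fl/fl libraries, against 31.9 and 33.2 FPKM in Cnot3 +/+ libraries, again without overlap. The ratio was 1.33 and the log2 fold change 0.40 (SE 0.08, limma adjusted p = 0.0470). Its call was lost without the eBayes trend, with an adjusted p of 0.0717 in limma. Prpf38b, the paralog of Prpf38a, had 70.3 and 72.4 FPKM in Cnot3 fl/fl against 73.8 and 68.3 FPKM in Cnot3 +/+ libraries, which overlapped, and the difference within this pair was not tested. Prpf40b, the scarcest of the PRP genes, had 3.67 and 3.71 FPKM in Cnot3 fl/fl against 5.51 and 5.40 FPKM in Cnot3 +/+ libraries (log2 fold change -0.46, limma adjusted p = 0.0628), without overlap.

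The gene for the scaffold of the catalytic centre did not pass. Prpf8 had 95.7 and 90.0 FPKM in Cnot3 fl/fl libraries, against 91.4 and 87.4 FPKM in Cnot3 +/+ libraries (log2 fold change 0.05, SE 0.08), and the genotypes overlapped. Of the other tri-snRNP genes, Prpf4, Prpf31 and Prpf3 had log2 fold changes of 0.20, 0.04 and -0.11. Prpf31 is the neighbour of Cnot3, with 2784 bases between their loci on chromosome 7 (mm9), and it had 20.3 and 20.6 FPKM in Cnot3 fl/fl against 18.5 and 21.4 FPKM in Cnot3 +/+ libraries, which overlapped. Prpf18, which acts in the second catalytic step, and the kinase gene Prpf4b had 0.31 and 0.16, both without overlap. Prpf19, for the ubiquitin ligase at the core of its own spliceosomal complex, had -0.02, and Prpf39, a U1-associated gene, had -0.19. The files give Prpf39 the same merged locus as Fkbp3, which had 40.8 and 34.5 FPKM in Cnot3 fl/fl libraries, against 50.2 and 51.4 FPKM in Cnot3 +/+ libraries. The median over the 13 genes was 0.05, positive with each library left out, and 0.12 without Cnot3 +/+ replicate 2.

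**Figure D3:**
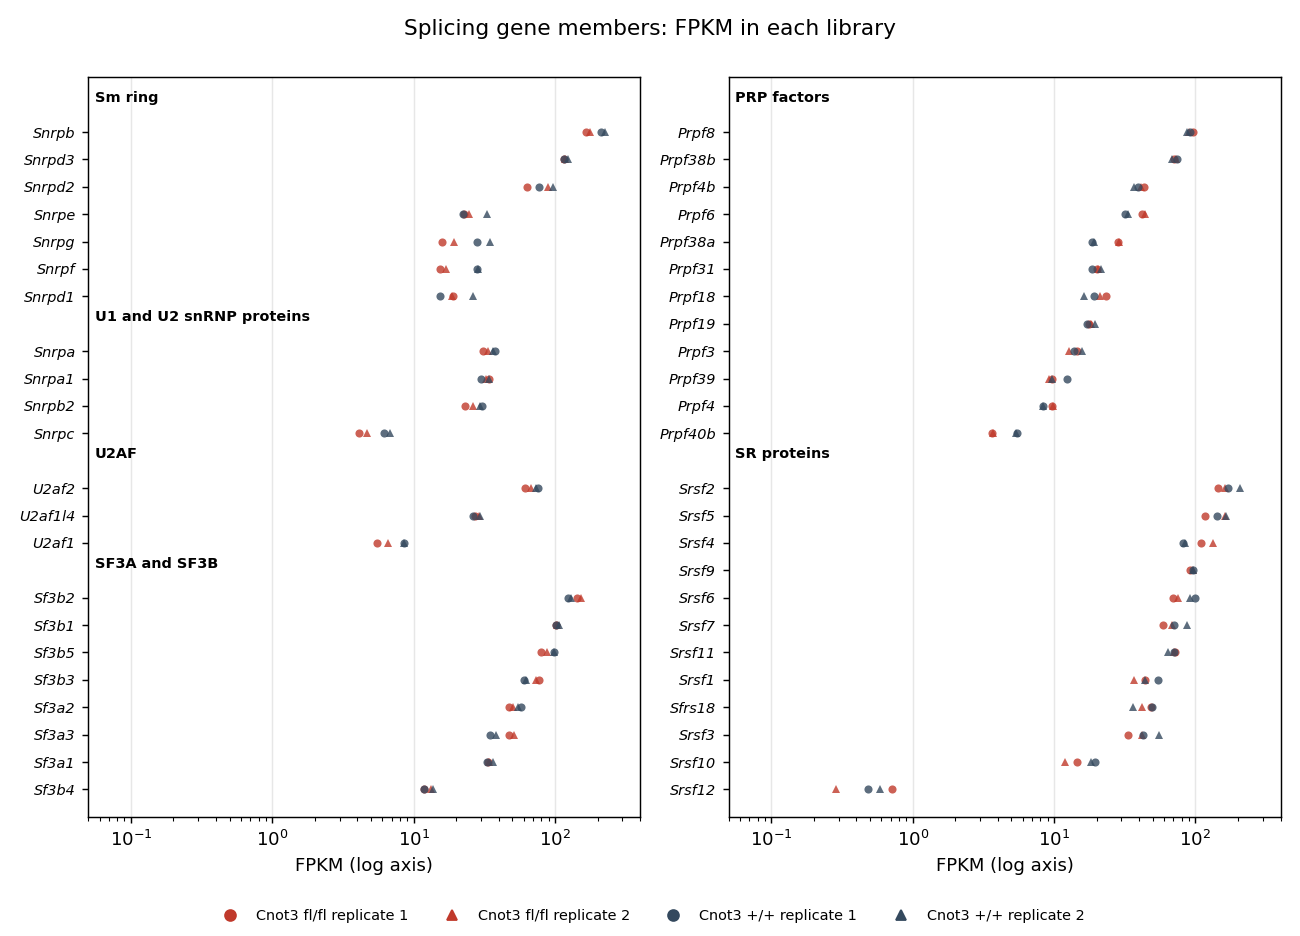
FPKM on a log axis in each of the 4 libraries for 46 of the splicing genes above 0 in every library, ordered by mean level within each role. Levels of different genes spread from under 1 FPKM for Srsf12 to over 200 FPKM for Snrpb, while the libraries of 1 gene lie close together in most genes.

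SR proteins carry RNA-binding domains and a tail rich in arginine and serine. Of their 12 genes 11 were tested and none passed (0 in the authors' deposited table by q-value), with a negative log2 fold change in 8. At an unadjusted limma p under 0.05, 1 was higher and 2 lower, beside 18.5% and 15.3% of all genes tested. The close paralogs Srsf4 and Srsf6 stood on opposite sides. Srsf4 had 109 and 132 FPKM in Cnot3 fl/fl libraries, against 81.8 and 84.1 FPKM in Cnot3 +/+ libraries (log2 fold change 0.53, SE 0.12, limma adjusted p = 0.0568). Srsf6 had 69.1 and 74.8 FPKM in Cnot3 fl/fl libraries, against 99.3 and 91.9 FPKM in Cnot3 +/+ libraries (log2 fold change -0.40, SE 0.09, limma adjusted p = 0.0563). In each the genotypes did not overlap. So Srsf4 was the higher of the pair in both Cnot3 fl/fl libraries and Srsf6 in both Cnot3 +/+ libraries, a reversal of their order that was not tested. Both passed with robust eBayes (0.0444 and 0.0480) and under quantile normalization (0.0344 and 0.0467).

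Srsf10, for a factor that represses splicing when dephosphorylated, had 14.7 and 12.0 FPKM in Cnot3 fl/fl libraries, against 19.4 and 18.2 FPKM in Cnot3 +/+ libraries. Its log2 fold change was -0.47 (SE 0.12, limma adjusted p = 0.0727), without overlap. Srsf2, the most abundant SR gene, had 146 and 162 FPKM in Cnot3 fl/fl libraries, against 169 and 207 FPKM in Cnot3 +/+ libraries (log2 fold change -0.28, limma adjusted p = 0.21). Its lower Cnot3 +/+ library lay just above its higher Cnot3 fl/fl library. Srsf5 had 117 and 162 FPKM in Cnot3 fl/fl libraries, against 143 and 164 FPKM in Cnot3 +/+ libraries, so its replicates differed more than its genotypes.

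Srsf3 and Srsf7, which also act in mRNA export, had log2 fold changes of -0.36 and -0.30 and were lower in both Cnot3 fl/fl libraries. Srsf1, the founding member of the family, had -0.28 with overlapping libraries. Srsf9 had -0.03, Srsf11 0.08 and Sfrs18, an SR-related gene, 0.10, with overlap in Srsf9 and Sfrs18. Srsf12 was between 0.287 and 0.720 FPKM in every library and was not tested. The median log2 fold change of the 11 genes was -0.28. It was -0.14 without Cnot3 +/+ replicate 2 and -0.19 without Cnot3 fl/fl replicate 1. In the latter case 6 of the 11 were negative, with Srsf5 and Srsf9 at 0.08 and 0.01. With any other library left out 8 or 9 were negative.

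Genes with short coding sequences had the more negative values. Coding length was the longest coding sequence of each gene in GENCODE vM21, found for all 46 tested genes. Snrpg, Snrpf and Sf3b5 encode 76, 86 and 86 residues, and Prpf8 encodes 2335. Across the 46 genes, Spearman's rho between coding length and log2 fold change was 0.59, beside 0.12 across 10556 genes tested, and with transcript length it was 0.41, beside -0.04. These are descriptions across genes that share the same 4 libraries. The log2 fold change was negative in 8 of 8 splicing genes with under 500 coding bases, with a median of -0.22. Without Cnot3 +/+ replicate 2 it was negative in 5 of the 8 (median -0.10), without Cnot3 fl/fl replicate 1 in 7, and with either of the other libraries left out in 8. Among all tested genes of that length it was negative in 648 of 917, or 70.7%, with a median of -0.20. From 500 to 1500 bases the median was -0.19 over 21 splicing genes, beside -0.0024 over 4953 genes, and at 1500 bases or more it was 0.08 over 17, beside 0.02 over 4686. The part of length in the calls of Snrpf and Snrpg was not tested.

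**Figure D4:**
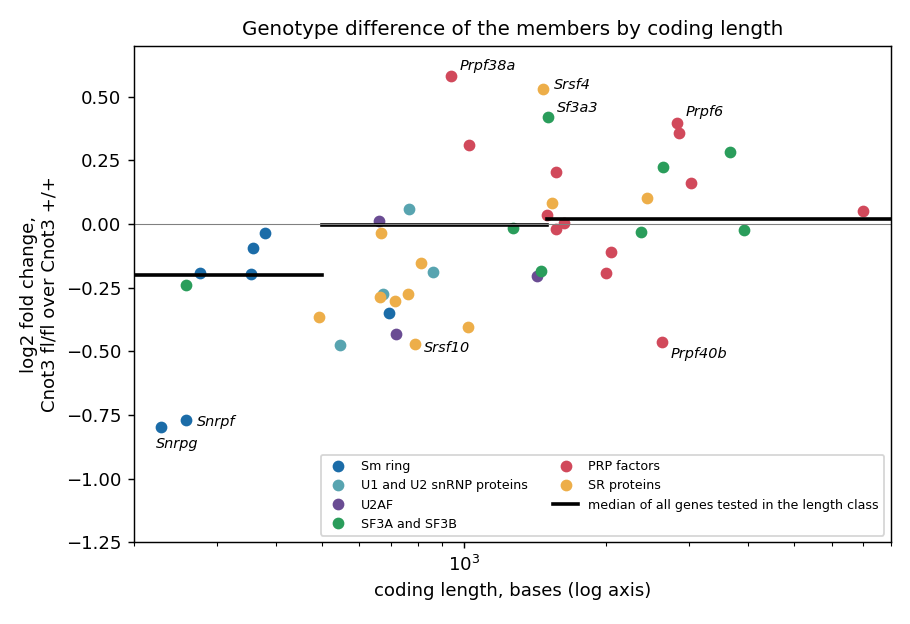
Log2 fold change (Cnot3 fl/fl over Cnot3 +/+) of the 46 splicing genes against coding length on a log axis, coloured by role, with black lines at the median of all genes tested under 500, from 500 to 1500 and at 1500 or more coding bases. All 8 splicing genes under 500 bases lie below 0 (5 of the 8 without Cnot3 +/+ replicate 2), as do 70.7% of all genes tested in that length class.

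Splicing genes outside these families are set beside them from 4 lists chosen by role. Of 46 other spliceosome proteins 6 rose, 1 fell and 39 did not pass, that is 13% and 2.17%, beside 6.22% and 3.28% of all genes tested, with a median log2 fold change of 0.07. The helicase gene Dhx38, needed for the second step, had 46.3 and 48.8 FPKM in Cnot3 fl/fl libraries, against 29.5 and 30.5 FPKM in Cnot3 +/+ libraries (log2 fold change 0.65, limma adjusted p = 0.0319). Plrg1, of the complex around Prpf19, had 50.0 and 52.9 FPKM in Cnot3 fl/fl against 34.2 and 30.9 FPKM in Cnot3 +/+ libraries, and Dhx8, the helicase that releases the spliced mRNA, had 40.8 and 39.7 FPKM in Cnot3 fl/fl against 28.3 and 23.5 FPKM in Cnot3 +/+ libraries. The other rises were in Eftud2, the U5 GTPase that binds the Prpf8 protein, and in Crnkl1 and Aqr, with log2 fold changes of 0.56, 0.48 and 0.48. In the authors' deposited table Dhx38, Plrg1 and Dhx8 had q-values of 0.0154, 0.0333 and 0.0346, while Aqr and Crnkl1 did not pass there (0.122 and 0.139) and Eftud2 was marked as a failed test. The gene that fell was Phf5a, a small SF3B subunit, at 18.4 and 19.4 FPKM in Cnot3 fl/fl against 26.3 and 28.4 FPKM in Cnot3 +/+ libraries (log2 fold change -0.51, limma adjusted p = 0.0413), and its q-value in the authors' deposited table was 0.149.

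Genes of hnRNP proteins, many of which oppose SR proteins at exons, were mostly lower. Of 29 genes 28 were tested, 5 fell, none rose and 23 did not pass. At an unadjusted limma p under 0.05, 14 were lower and 0 higher, beside 15.3% and 18.5% of all genes tested. The share called lower was 17.9%, beside 3.28% of all genes tested, and the median log2 fold change was -0.24, with a negative value in 24 of 28. In 20 of the 28, or 71.4%, the genotypes did not overlap and the Cnot3 fl/fl values were the lower ones, beside 31.7% of all genes tested. The median was between -0.28 and -0.22 with a library left out and -0.22 under quantile normalization. Hnrnph1, which binds G-rich runs, had 86.7 and 88.9 FPKM in Cnot3 fl/fl libraries, against 149 and 149 FPKM in Cnot3 +/+ libraries (log2 fold change -0.76, SE 0.07, limma adjusted p = 0.0244). The authors' deposited table gave it a q-value of 0.0053. Hnrnpa1, Hnrnph3, Hnrnpc and Syncrip also fell, with log2 fold changes of -0.58, -0.55, -0.43 and -0.40. The authors' deposited table gave these 4 q-values between 0.160 and 0.277.

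In the list of 20 SR kinases and SR-related proteins 1 fell, none rose and 19 did not pass, with a median of -0.0070. The fall was 5% of the list, beside 3.28% of all genes tested. The one that fell was Clk4, for a kinase that phosphorylates SR proteins, at 28.5 and 32.2 FPKM in Cnot3 fl/fl libraries, against 42.5 and 47.7 FPKM in Cnot3 +/+ libraries (log2 fold change -0.56, limma adjusted p = 0.0452). Of 15 genes of snRNP assembly, among them Smn1 and the Gemin genes, 0 passed the limma test, with a median of 0.11. At an unadjusted limma p under 0.05, 3 were higher and 0 lower, beside 18.5% and 15.3% of all genes tested. The smallest p there was that of Gemin5 (log2 fold change 0.33, limma adjusted p = 0.0814). The median of the assembly genes was -0.0065 without Cnot3 fl/fl replicate 2. All 13 calls in these 4 lists were lost with any 1 library left out, with limma adjusted p between 0.0864 and 0.253, and without the trend in eBayes 1 of the 46 other spliceosome genes, 0 SR kinase genes and 1 hnRNP gene passed. With no filter on low values 0 genes of these lists passed. With the replicate number as a block the rises among other spliceosome genes numbered 4 and the falls among hnRNP genes 2.

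**Figure D5:**
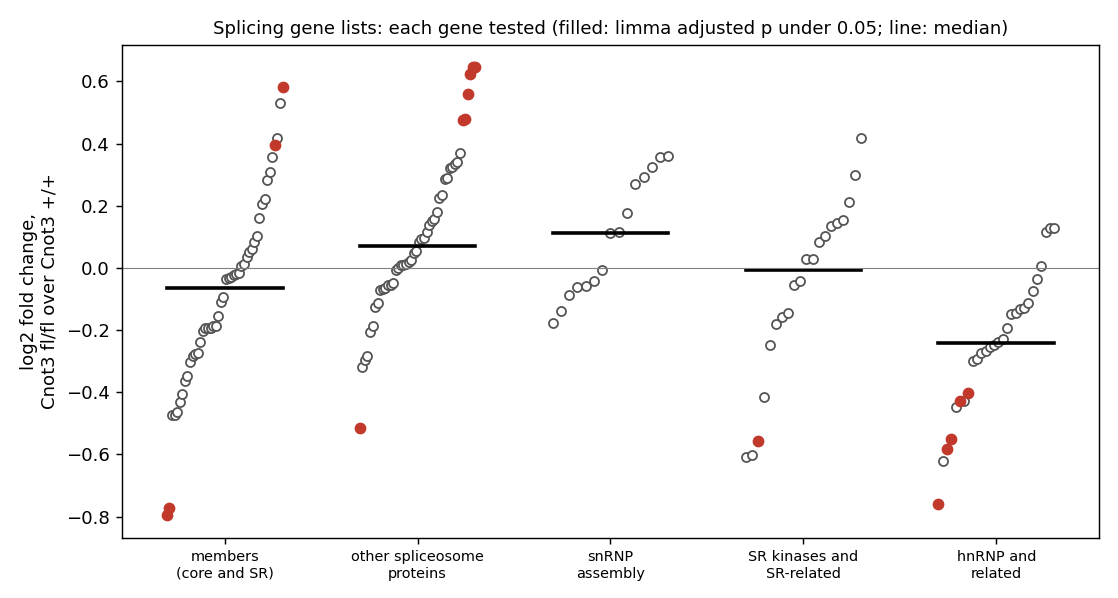
Log2 fold change (Cnot3 fl/fl over Cnot3 +/+) of each gene tested in the 48-gene group and in 4 other splicing lists, sorted within each list, with the median as a line and filled points at a limma adjusted p under 0.05. The medians are -0.06, 0.07, 0.11, -0.0070 and -0.24 from left to right.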

How the data were processed

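The 4 libraries were made from total RNA with a stranded mRNA kit, per the labels' protocols. Per the submitters' processing notes, the build was mm9 and the tools included Cufflinks and Cuffnorm, both version 2.2.1, TopHat2 2.0.13 with Bowtie2 2.2.3.0, and bcl2fastq 1.8.4. Their roles, the annotation and whether counting used strand are not given in the sources used. Reads shared with near-identical copies or overlapping genes may be split between them. The authors deposited FPKM per gene and library, and a table with FPKM per genotype, p-values and q-values, per the file headers. The members and lists were chosen with earlier results of these data known.

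Values were taken as log2(FPKM + 1), on which the change of low genes is understated. A mean of 1 FPKM or more was required, which left 11017 genes, fitted with limma 3.58.1 in R 4.3.3 (lmFit, eBayes with trend, genotype as the only term, two-sided, Benjamini-Hochberg over all genes tested, threshold 0.05). The fit had 2 residual degrees of freedom and 2.69 from the prior. Relative depth is the ratio shared, within a small tolerance, by the most genes at low FPKM, 8.68% to 12.1% of them. Lengths came from GENCODE vM21, since no table of proteins was used here. Values per library are given for members past the threshold and, in each role, for members among the 3 with the smallest p and the 2 most abundant. Genes of the other lists past the threshold are named, some with values per library, and a few other members were added for their role or their paralog. One gene that this takes is counted but not reported by name here. P-values measure the spread between these mice only. Alternatives were 2 other pseudocounts, 2 other filters, 2 rescalings, 2 forms of eBayes, a replicate block and leaving out each library.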

Additional observations from a re-analysis of the deposited data

How the results depend on the processing

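The median log2 fold change of the 46 genes stayed negative under each alternative, from -0.11 to -0.012 with a library left out. With a library left out, a fit with 3 libraries in which the lone one is assumed to vary like the others, 0 splicing genes were called higher and 0 lower, where limma gave 4 to 7 higher and 4 to 11 lower at an unadjusted p under 0.05, and 2 to 18 higher and 0 to 13 lower among all genes. With no filter on low values 0 splicing genes were higher and 0 lower (8 and 11 at an unadjusted limma p under 0.05), and 4 and 1 of all genes; 16296 genes were then tested. Without the eBayes trend the counts were 0 and 1 of the splicing genes and 242 and 69 of all genes. Quantile normalization and robust eBayes each called 4 splicing genes higher. The authors' deposited table has 0 higher and 0 lower by q-value. The cause of these changes was not tested. With the replicate number as a block 1 splicing gene was higher and 2 lower, and 456 of all genes were higher. The block ended the call of Prpf6, at a limma adjusted p of 0.0589. The labels name no shared animal, litter or day behind a replicate number, so they do not pair the libraries. The difference of replicate 2 minus 1 had a Pearson r between the genotypes of 0.144 across all genes tested and of 0.459 across the 46 splicing genes, and with 2 pairs this does not settle whether the numbers pair them. Other pseudocounts and a minimum mean of 5 FPKM left the counts at 2 and 2. Absolute depth is unknown, so counting error could not be set beside the values.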
